A study of Mus musculus with 9 samples.

Results

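The genes described here are those of insulin-like growth factor 1 (Igf1), its receptor (Igf1r) and 6 IGF-binding proteins (Igfbp2 to Igfbp7). They were taken by symbol from the Ensembl gene identifiers of the count files, giving 8 of 49671 genes, and all 8 passed the filter on low counts. They were measured by RNA-seq in cells of the melanocyte lineage sorted from mouse dermis as KIT-positive and CD45-negative, where KIT is the receptor of stem cell factor and CD45 an immune cell marker. The 3 groups were melanoblasts of wild-type C57BL/6J pups at postnatal day 0.5 (n = 3), quiescent melanocyte stem cells (McSC) of wild-type C57BL/6J adults at 8 to 10 weeks, given as 8 weeks in the sample labels (n = 4), and quiescent McSC of wild-type C57BL/6 mice at 24 months (n = 2). Only female mice were used and the labels name no treatment. Hair follicles of the adult and aged skin were in telogen, when hair growth rests, and each library pooled cells of several animals. The aged mice were bought in at 21 months, so age and colony cannot be told apart. P-values measure the spread between pools.

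IGF1 is a secreted growth factor that acts through a receptor tyrosine kinase, IGF1R, to switch on the PI3K-AKT and MAPK pathways. The IGF-binding proteins are secreted too. They hold IGF1 and IGF2 outside the cell, extend their life and limit or deliver them to the receptor, and several also act on cells without IGF. In skin, dermal fibroblasts and the dermal papilla are known sources of IGF1, and melanocytes are known to respond to it.

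Total counts per library were 23688288 to 33710117 in melanoblasts, 19956424 to 21572026 in adult and 12594770 to 16362560 in aged McSC. Levels are given in CPM, counts scaled to the same library size with TMM factors, a correction for differences in RNA composition. A library with no read of a gene could still hold up to 0.117 to 0.187 CPM of it (3 counts). The 10 melanocyte lineage markers summed to 14482 to 26271 CPM in melanoblast, 4480 to 10930 CPM in adult and 7487 to 8998 CPM in aged libraries, so the labelled lineage was present in all 9. Of these markers 8 fell in adult McSC against melanoblasts and 0 rose, where 18.3% of all genes fell and 15.1% rose. As a guide to stray signal, 95 percent of 1702 olfactory and vomeronasal receptor genes lay at or under 0.823 CPM in melanoblasts, 1.85 CPM in adult and 2.17 CPM in aged McSC.

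The 3 genes with a rise in adult McSC that was called under every setting tried were Igfbp3, Igfbp5 and Igfbp7, and their promoters are shown because these genes were high together in adult McSC. Each sequence is the 250 bases before the RefSeq transcript start in build GRCm38.p6, 5′ to 3′ on the strand of the gene. Capitals mark GC boxes (GGGCGG on either strand), the binding motif of SP1-type factors.
Igfbp3, chr11:7213924-7214173, minus strand: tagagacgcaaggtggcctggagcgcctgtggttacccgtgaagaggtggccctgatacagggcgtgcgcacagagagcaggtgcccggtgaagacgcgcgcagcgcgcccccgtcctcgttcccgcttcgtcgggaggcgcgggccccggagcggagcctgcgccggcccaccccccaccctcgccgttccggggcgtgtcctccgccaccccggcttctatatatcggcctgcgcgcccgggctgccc
Igfbp5, chr1:72874866-72875115, minus strand: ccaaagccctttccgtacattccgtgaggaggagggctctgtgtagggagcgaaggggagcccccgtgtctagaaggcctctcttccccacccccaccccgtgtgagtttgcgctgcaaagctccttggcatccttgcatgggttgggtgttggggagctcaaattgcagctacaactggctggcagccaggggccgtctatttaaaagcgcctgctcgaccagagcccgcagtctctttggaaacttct
Igfbp7, chr5:77408046-77408295, minus strand: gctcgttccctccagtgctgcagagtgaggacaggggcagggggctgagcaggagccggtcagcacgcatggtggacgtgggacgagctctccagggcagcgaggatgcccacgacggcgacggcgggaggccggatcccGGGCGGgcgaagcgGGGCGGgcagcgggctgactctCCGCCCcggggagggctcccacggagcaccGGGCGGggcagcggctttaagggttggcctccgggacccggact
The Igfbp7 promoter held 4 GC boxes, and those of Igfbp3 and Igfbp5 held none. Of all 32851 promoter windows of this length, 32.7% held at least 1. Other motifs were searched on both strands and had no match in these 3 windows. The TATA box TATAAA was in 12.4% of all windows and the CCAAT box in 33.8%. The AP-1 motif TGANTCA was in 6.75% and the FOXO motif TGTTTAC in 3.17%. The E-box CACGTG was in 6.02%, and CATGTG, the core of the M-box that MITF binds, in 12.3%. Base composition was 73.2% GC for Igfbp3, 58.8% for Igfbp5 and 74% for Igfbp7.

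Igf1, the ligand (chromosome 10, from 87858265 to 87937042 of mm10, plus strand), was low at all 3 ages, and no difference between them passed the test. It was at 6.97, 10.6 and 5.07 CPM in the melanoblast libraries, 7.56, 7.27, 4.70 and 6.04 CPM in the adult libraries and 7.20 and 7.18 CPM in the aged libraries. The adult range lay inside the span of the other groups' values except for 1 library, adult replicate 3. The difference between adult McSC and melanoblasts was -0.24 on the log2 scale (SE 0.313, adjusted p = 0.572), with an approximate 95% interval from -0.85 to 0.38. Between aged and adult McSC it was 0.17 (SE 0.354, adjusted p = 0.902; interval -0.53 to 0.86), and between aged McSC and melanoblasts -0.07 (SE 0.377, adjusted p = 0.891). With factors taken from abundant genes the last difference was 1.14 (adjusted p = 0.0176) and that of adult McSC against melanoblasts 0.62, in the opposite direction. The gene named Igf1os overlaps Igf1 on the other strand but shares 0 exon bases with it.

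Igf1r, the receptor (chromosome 7, from 67952827 to 68233668, plus strand), was by far the most counted of the 8 genes. It was at 490, 435 and 312 CPM in melanoblasts, 210, 346, 255 and 284 CPM in adult and 168 and 188 CPM in aged McSC. The aged libraries were the lowest and overlapped with no other library, and adult replicate 2 lay above melanoblast replicate 3. Group means were 412.3 ± 91.1 CPM (SD, n = 3), 273.9 ± 56.9 CPM (SD, n = 4) and 178 ± 13.9 CPM (SD, n = 2).

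Against melanoblasts, Igf1r was lower in aged McSC, at -1.21 on the log2 scale (SE 0.286, adjusted p = 0.00194) and in adult McSC, at -0.59 (SE 0.228, adjusted p = 0.0488). With factors taken from 4392 abundant genes the adult direction turned, to 0.23 (adjusted p = 0.134), and the aged difference shrank to -0.015 (adjusted p = 0.932). The aged difference was negative in all 18 settings and called in 17. The adult call was made in 4 of 18 settings, was missed by DESeq2 (adjusted p = 0.0545) and was lost without melanoblast replicate 1 (adjusted p = 0.209) or 2 (0.134), adult replicate 1 (0.211), 3 (0.124) or 4 (0.0934), or aged replicate 1 (0.0895) or 2 (0.0917). Aged against adult, the difference was -0.62 (SE 0.268, adjusted p = 0.449), which did not pass.

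**Figure D1:**
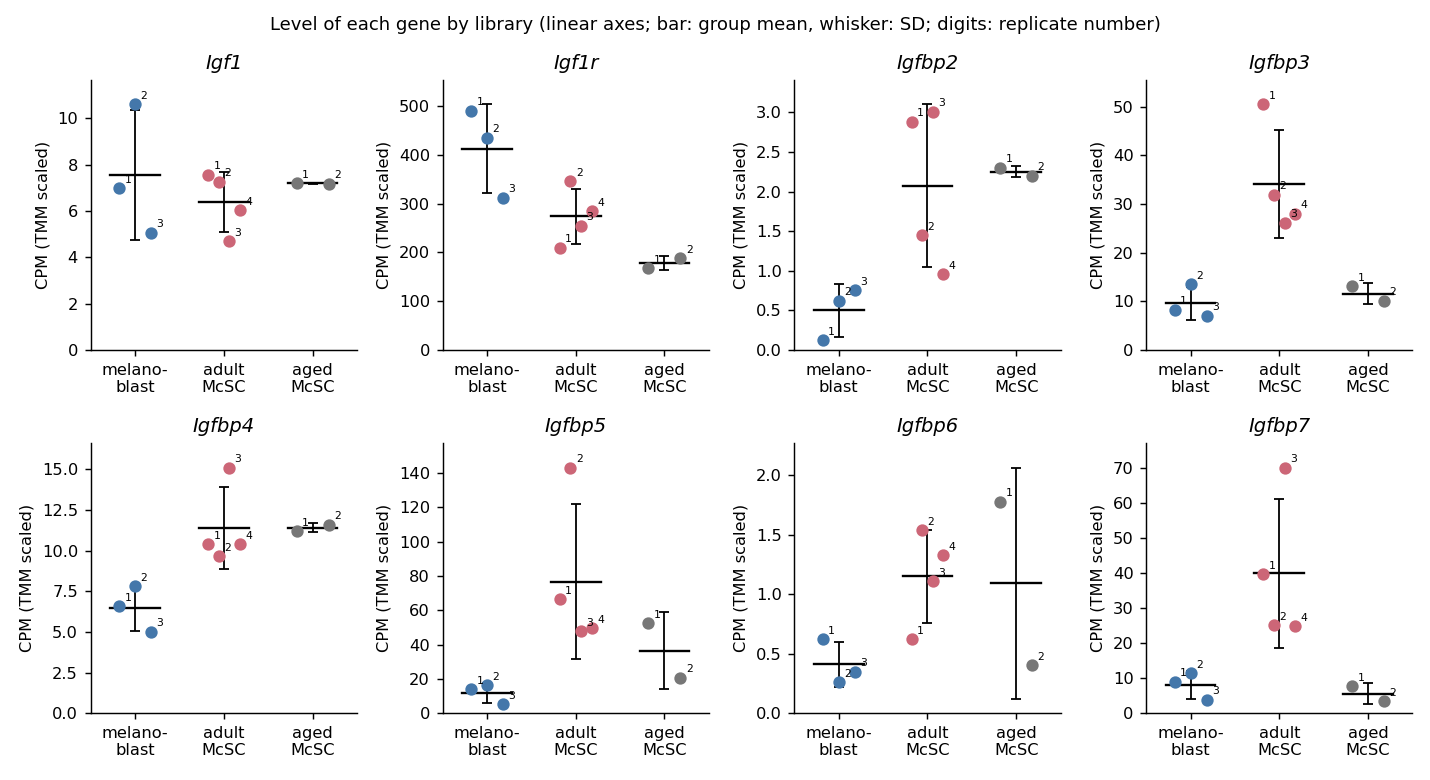
Level of Igf1, Igf1r and the 6 binding protein genes in each library, in TMM-scaled CPM on linear axes from 0; points are libraries (digits give the replicate), bars group means and whiskers SD. The 4 adult libraries lie above all others in Igfbp3 and Igfbp7, and the mean of Igf1r goes from 412.3 to 178 CPM.

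Among the 8 genes, the largest differences between adult McSC and melanoblasts were in binding proteins. Igfbp2, Igfbp3, Igfbp4, Igfbp5 and Igfbp7 rose against melanoblasts, so 5 of the 8 genes rose and 1, Igf1r, fell. Among all 31961 genes tested, 15.1% rose and 18.3% fell (33.4% in either direction). The groups did not overlap for 6 of the 8 genes, against 39.3% of all genes. The median log2 fold change was 1.66 over the 8 genes and 0.39 over all genes. In all, 4836 genes rose and 5840 fell. Scaling on abundant genes gave 10911 rises and 1815 falls, and the median of all genes moved to 1.19, and under that scaling all 6 binding protein genes were called higher and Igf1r was not called.

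Igfbp5, a binding protein of the matrix-bound kind (chromosome 1, from 72857932 to 72874884, minus strand), rose 6.44-fold. It was at 14.1, 16.3 and 5.37 CPM in melanoblasts and 66.6, 143, 47.7 and 49.7 CPM in adult McSC. Every adult library was above every melanoblast library, and adult replicate 2 stood above the others. The difference was 2.69 on the log2 scale (SE 0.469, adjusted p = 0.000379). Without adult replicate 2 it was 2.20 (adjusted p = 0.000134).

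Igfbp7, whose product binds IGFs weakly and is known from vascular endothelium (chromosome 5, from 77349240 to 77408041, minus strand), rose 4.94-fold. It was at 9.02, 11.4 and 3.86 CPM in melanoblasts and 39.7, 25.1, 70.0 and 24.8 CPM in adult McSC. The groups did not overlap, and adult replicate 3 was the highest. The log2 fold change was 2.31 (SE 0.411, adjusted p = 0.00026), and 1.89 without adult replicate 3 (adjusted p = 0.000435). Igfbp7 shares 85 exon bases with Polr2b on the other strand, and whether reads were counted by strand is not given in the sources used here.

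Igfbp3, the main IGF carrier of blood plasma (chromosome 11, from 7206086 to 7213923, minus strand), rose 3.55-fold. It was at 8.28, 13.5 and 7.03 CPM in melanoblasts and 50.5, 31.9, 26.2 and 28 CPM in adult McSC. No adult library came within the melanoblast range. The log2 fold change was 1.83 (SE 0.288, adjusted p = 2.89e-05). Of the 18 settings, all 18 called Igfbp3, Igfbp5 and Igfbp7 higher, with log2 fold changes from 1.64 to 2.71, 2.15 to 3.51 and 1.89 to 3.22.

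Igfbp4, an inhibitor of IGF action that the protease PAPP-A cleaves (chromosome 11, from 99041244 to 99054392, plus strand), rose less. It was at 6.60, 7.82 and 5.02 CPM in melanoblasts and 10.4, 9.67, 15.1 and 10.4 CPM in adult McSC. The log2 fold change was 0.81 (SE 0.278, adjusted p = 0.0268). The call was lost without melanoblast replicate 1 (adjusted p = 0.0652) or 3 (0.0634) or without adult replicate 3 (0.118), and with a replicate block (0.0562).

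Igfbp2 (chromosome 1, from 72824503 to 72852474, plus strand), a binding protein known from fetal tissues, was scarce. It had 2, 12 and 15 counts in the melanoblast libraries, or 0.124, 0.625 and 0.753 CPM, and 2.88, 1.45, 3.01 and 0.957 CPM in adult McSC. The log2 fold change was 2.02 (SE 0.635, adjusted p = 0.0168). The call was lost without melanoblast replicate 1 (adjusted p = 0.0704) or adult replicate 3 (0.0629), and the adult mean of 2.08 CPM is near the 1.85 CPM of the receptor genes. Igfbp6, which prefers IGF2 over IGF1 (chromosome 15, from 102144362 to 102149511, plus strand), was below that level in adult McSC, at 0.411 CPM in melanoblasts and 1.15 CPM in adult McSC (1.49 on the log2 scale, SE 0.716, adjusted p = 0.11).

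**Figure D2:**
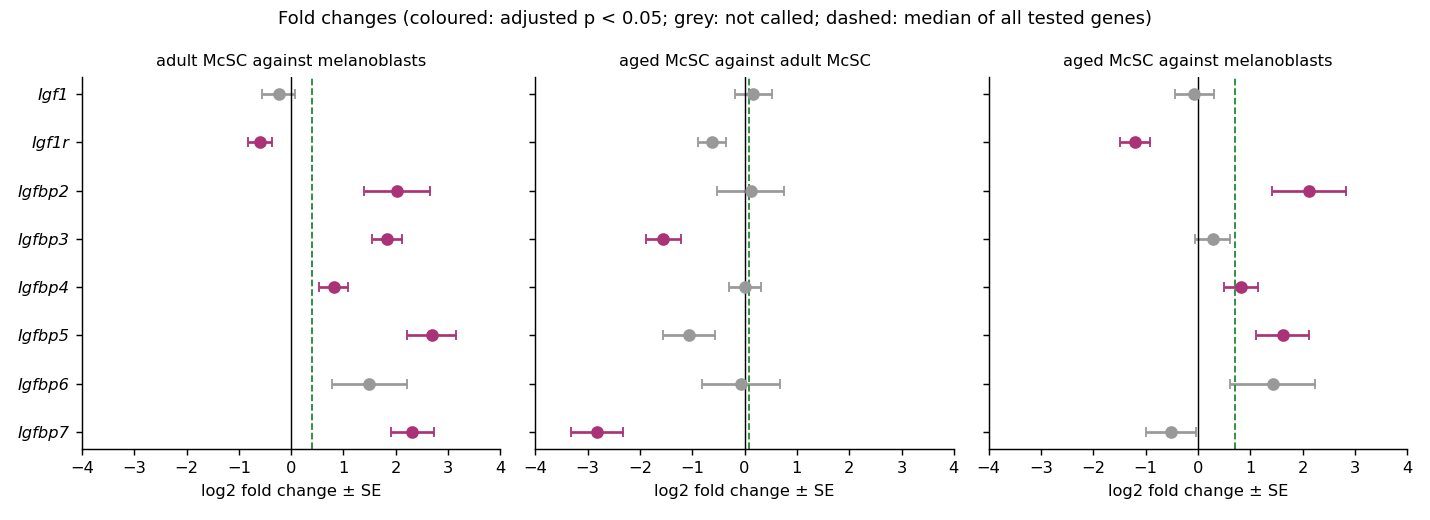
Log2 fold change with its SE for each of the 8 genes in the 3 comparisons; coloured points have an edgeR adjusted p under 0.05 and the dashed line is the median of all 31961 genes. Igfbp3 and Igfbp7 lie to the right in adult against melanoblast (1.83 and 2.31) and to the left in aged against adult (-1.55 and -2.82).

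In aged McSC, Igfbp3 and Igfbp7 were lower than in adult McSC, and no gene of the 8 rose. These were 2 of the 8 genes, where 0.25% of all genes fell and 0.0532% rose (0.303% in either direction, 97 genes). The median difference was -0.34 over the 8 genes and 0.08 over all genes. The groups did not overlap for 3 of the 8 genes, Igf1r, Igfbp3 and Igfbp7, against 27.7% of all genes.

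Igfbp7 was at 7.68 and 3.53 CPM in aged McSC, against 24.8 to 70.0 CPM in adult McSC. Both aged libraries lay below all adult libraries and within the range set by the melanoblasts or just under it. The log2 fold change was -2.82 (SE 0.5, adjusted p = 0.0143), a 7.06-fold difference. The call was lost without adult replicate 1 (-2.80, adjusted p = 0.0778) and without aged replicate 2 (-2.35, adjusted p = 0.956), with a stricter filter (adjusted p = 0.06) and under scaling on abundant genes (-2.49, adjusted p = 0.171).

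Igfbp3 was at 13.1 and 10.1 CPM in aged against 26.2 to 50.5 CPM in adult McSC, with no overlap. The log2 fold change was -1.55 (SE 0.33, adjusted p = 0.0366), a 2.93-fold difference. The direction held in all 18 settings (-1.82 to -1.23) and the call in 10. It was lost without melanoblast replicate 1 (adjusted p = 0.0582), adult replicate 1 (0.103), 2 (0.0776) or 3 (0.051), or aged replicate 1 (0.099) or 2 (0.956), with a stricter filter (adjusted p = 0.122) and under scaling on abundant genes (-1.23, adjusted p = 0.25).

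The other binding proteins did not pass between aged and adult McSC, except that Igfbp5 was called lower in 2 of 18 settings, without a filter on low counts (-1.07, adjusted p = 0.0344) and with a replicate block (-1.57, adjusted p = 0.0108). Igfbp5 was at 52.5 and 20.7 CPM in aged libraries, of which the first lay inside the adult range (log2 fold change -1.06, SE 0.501, adjusted p = 0.488; interval -2.04 to -0.08). Igfbp4 was at 11.2 and 11.6 CPM against an adult mean of 11.4 CPM (SE 0.305 on the log2 scale, adjusted p = 0.997), with an interval from -0.59 to 0.60. Igfbp2 was at 2.30 and 2.20 CPM (log2 fold change 0.12, adjusted p = 0.966). Igfbp6 was at 1.78 and 0.405 CPM, under the receptor gene level of 2.17 CPM (adjusted p = 0.986).

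Set against melanoblasts, aged McSC were higher in Igfbp2, Igfbp4 and Igfbp5 and lower in Igf1r, so 3 of the 8 genes rose and 1 fell, where 20.4% of all genes rose and 20.3% fell (40.7% in either direction). The groups did not overlap for 4 of the 8 genes, against 66.2% of all genes. The 3 comparisons share libraries in pairs and are not independent of each other. The log2 fold changes were 2.13 for Igfbp2 (adjusted p = 0.0201), 0.82 for Igfbp4 (adjusted p = 0.0458) and 1.62 for Igfbp5 (adjusted p = 0.0192). The mean of Igfbp2 was 0.501 CPM in melanoblasts, under the receptor gene level of 0.823 CPM. In aged McSC it was 2.25 CPM, near the receptor gene level of 2.17 CPM. Igfbp2 lost its call without melanoblast replicate 1 (adjusted p = 0.0661) or aged replicate 1 (0.0806) or 2 (0.0548), and with only the groups compared (0.0745). Igfbp4 was called in 8 of 18 settings, and not by DESeq2 (adjusted p = 0.0879). It was not called without melanoblast replicate 1 (0.0827) or 3 (0.0863), adult replicate 3 (0.0582) or 4 (0.0623), or aged replicate 1 (0.126) or 2 (0.106). Igfbp5 was not called without melanoblast replicate 3 (1.27, adjusted p = 0.0766) or aged replicate 1 (0.85, adjusted p = 0.313), or by DESeq2 (adjusted p = 0.0879). For Igfbp3 the difference was 0.28 (interval -0.36 to 0.92) and for Igfbp7 -0.51 (interval -1.45 to 0.42), and neither passed (adjusted p = 0.495 and 0.386).

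To compare the genes with each other, CPM were divided by exon length in kilobases. Per kilobase, Igf1r led in melanoblasts at 24.6 ± 5.43 (SD, n = 3), followed by Igfbp7 at 6.69 ± 3.17 and Igfbp3 at 3.07 ± 1.1 CPM per kb. In adult McSC Igfbp7 came first at 33.0 ± 17.6 (SD, n = 4), then Igf1r at 16.3 ± 3.39, Igfbp5 at 12.8 ± 7.46 and Igfbp3 at 10.9 ± 3.56 CPM per kb. The library values of neighbours in this order overlapped, 20.5 to 57.9 with 12.5 to 20.6, then with 7.94 to 23.7 and 8.36 to 16.1 CPM per kb. Within each adult library Igfbp7 was above Igf1r, by least in replicate 2 (20.8 against 20.6 CPM per kb). In that library Igfbp5 was above both, at 23.7 CPM per kb. The order of Igf1r, Igfbp5 and Igfbp3 changed between adult libraries. In aged McSC Igf1r led again at 10.6 ± 0.826 (SD, n = 2). Igfbp5, Igfbp7 and Igfbp3 followed at 6.10 ± 3.74, 4.64 ± 2.43 and 3.72 ± 0.68 CPM per kb, which their spread does not separate. Within each aged library Igfbp5 was the highest of these binding proteins, at 8.74 and 3.45 CPM per kb. Igf1 was at 0.761, 0.645 and 0.726 CPM per kb in the 3 groups, the lowest mean of the 8 genes in adult and aged McSC. Its library values there overlapped with those of Igfbp6, and in adult McSC also with those of Igfbp2.

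The summed level of the 6 binding protein genes showed the adult peak in each library. It was 14.6, 18.8 and 8.20 CPM per kb in melanoblasts, 64.6, 59.1, 80.3 and 41.8 in adult and 24.7 and 13.8 CPM per kb in aged McSC. All 4 adult libraries were above all 5 others. Relative to Igf1 per kilobase, the sum was 16.0 to 20.7 times as high in melanoblasts, 68.6 to 169 times in adult and 34 and 19 times in aged McSC. These are ratios of transcripts, not of proteins, and the sum includes Igfbp7, whose product binds IGFs weakly.

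The make-up of that sum also differed. Igfbp7 held 46.8% ± 6.74 of it in melanoblasts (SD, n = 3), 51.8% ± 15.3 in adult (SD, n = 4) and 23.5% ± 3.22 in aged McSC (SD, n = 2). The aged shares, 25.7% and 21.2%, were below the lowest of the other libraries, 35.2% in adult replicate 2. Igfbp4 held 4.30% ± 0.918 in adult McSC, from 3.64% to 5.62%, and 9.44% to 19.0% in the 5 libraries of the other groups. Igfbp5 held 9.89% to 40.2% in adult and 35.4% and 25.0% in aged McSC. By mean share Igfbp7 led in melanoblasts and adult McSC and Igfbp5 in aged McSC. Without division by length Igfbp5, with 6.01 kb of exon against 1.21 kb for Igfbp7, had the largest mean share in all 3 groups, at 31.0%, 44.7% and 51.0% in melanoblast, adult and aged McSC.

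**Figure D3:**
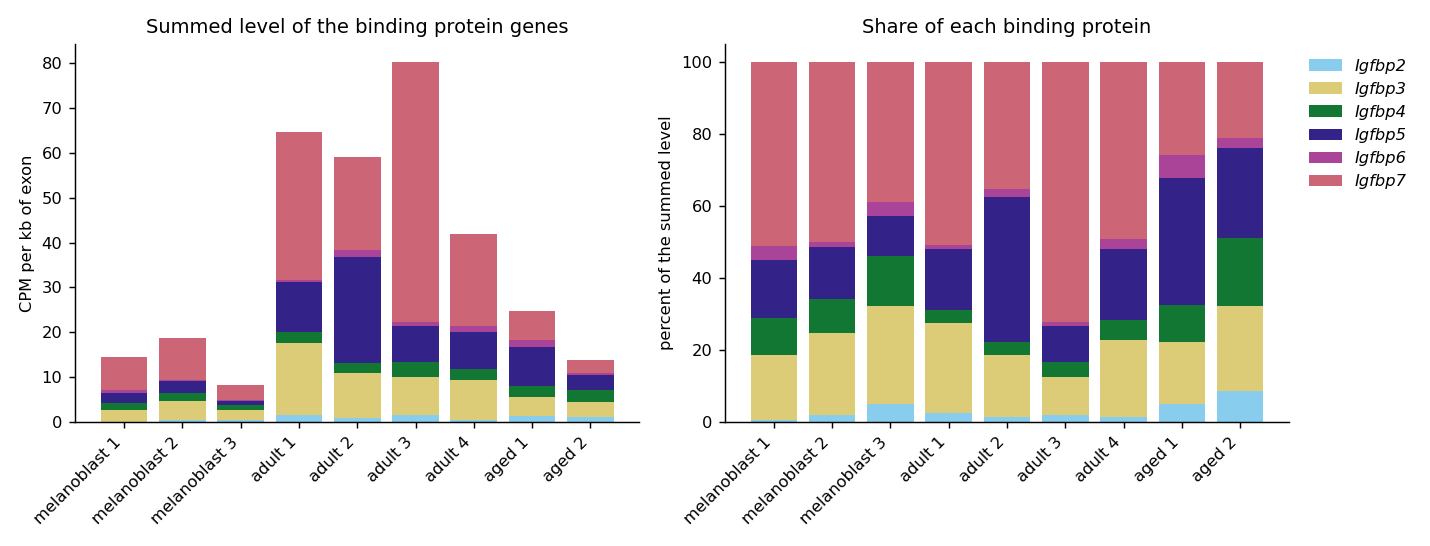
Binding protein genes per library, as stacked CPM per kb of exon (left) and as percent of their sum (right). The 4 adult McSC bars reach 41.8 to 80.3 CPM per kb, above all others, and the Igfbp7 part shrinks to 25.7% and 21.2% in the 2 aged libraries.

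The sorted cells held transcripts of other skin cells, and some of these moved with the binding proteins. In pooled cells, fewer cells of a type and less RNA per cell cannot be told apart. The marker counts here and below stand beside these shares over all genes. In adult McSC against melanoblasts 15.1% rose and 18.3% fell. In aged against adult McSC 0.0532% rose and 0.25% fell, and 3275 of 31961 genes had an unadjusted edgeR p under 0.05. The 11 endothelial markers (Pecam1 the most abundant) summed to 77.1, 107.3 and 64.2 CPM in melanoblasts, 155.4, 103.8, 319.4 and 93.8 CPM in adult and 86.0 and 75.1 CPM in aged McSC. Among adult libraries the order of this sum, replicates 3, 1, 2 and 4, was also the order of Igfbp7, with replicates 2 and 4 close (25.1 and 24.8 CPM). The orders also matched within the melanoblast and aged groups, but not across groups. Melanoblast replicate 2, with a sum of 107.3 CPM, had Igfbp7 at 11.4 CPM, under adult replicates 2 and 4. Of the 11 endothelial markers 5 rose and 0 fell in adult McSC against melanoblasts, and edgeR called 0 between aged and adult McSC, with a median of -1.20. At an unadjusted p under 0.05 it was 6 of 11, and DESeq2 and limma each called 1. The part of endothelial RNA in the Igfbp7 result was not tested.

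Schwann cell markers, which belong to nerve glia, summed to 240.4 to 358.9 CPM in melanoblasts, 634.9 to 932.9 CPM in adult and 190 and 257.3 CPM in aged McSC. Of 9, 6 rose and 1 fell in adult McSC, and 5 fell in aged against adult McSC (8 and 0, then 2, with factors from abundant genes). Over all genes, 15.1% rose and 18.3% fell in adult McSC, and 0.25% fell in aged against adult McSC. Adult replicate 1 had the highest Schwann sum and the highest Igfbp3. Among adult libraries it also had the highest fibroblast, macrophage and dendritic cell, mast cell, T and NK cell and adipocyte sums. Its melanocyte lineage sum, 4480 CPM, was the lowest of them. Adult replicate 2, with the highest Igfbp5, had the highest adult melanocyte lineage sum, 10930 CPM. Fibroblast markers summed to 587.6 to 2139 CPM in melanoblasts, 481.9 to 950.5 CPM in adult and 241.4 and 126.6 CPM in aged McSC. Of 10, 2 rose and 5 fell in adult McSC (2 and 1 with factors from abundant genes), and 3 fell in aged against adult McSC, Col1a1, Col1a2 and Col3a1 (0 with those factors). Of 15 keratinocyte and hair follicle markers 13 rose in adult McSC and 1 fell, Cdh1, the most abundant (means of 1885 and 353.6 CPM). With Cdh1 their sum was 1677 to 2561 CPM in melanoblasts, 1672 to 2819 CPM in adult and 1462 and 1308 CPM in aged McSC. The other 14 summed to 198.3 to 459.5 CPM in melanoblasts, 1203 to 2488 CPM in adult and 1135 and 992.7 CPM in aged McSC, so they were higher in every adult library than in the melanoblasts, as the binding proteins Igfbp3, Igfbp5 and Igfbp7 were. Between aged and adult McSC edgeR called 0 of the 15, with 7 at an unadjusted p under 0.05, and DESeq2 called 2 and limma 5. The keratins Krt5 and Krt15 had differences of -1.45 and -1.55 (adjusted p = 0.145 and 0.116), with no overlap between the groups. Of the 7 with an unadjusted p under 0.05, Lhx2 (-0.87) and Itga6 (-0.59) were also lower. Sfn (0.94), Krt10 (0.77) and Krt1 (0.75) were higher, so these markers split in direction. Every marker of these lists had counts in at least 1 library, and the part of these cells in the results was not tested. For the remaining lists, dermal papilla markers rose for 2 and fell for 2 of 7 in adult McSC, macrophage and dendritic cell markers rose for 3 of 13, T and NK cell markers for 1 of 10, pericyte and smooth muscle markers fell for 2 of 8, mast cell markers for 2 of 9 tested, and adipocyte markers split 1 and 1 of 8. Between aged and adult McSC edgeR called 0 of the 55 tested markers of these 6 lists, where 10 had an unadjusted p under 0.05, DESeq2 called 0 and limma 7.

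**Figure D4:**
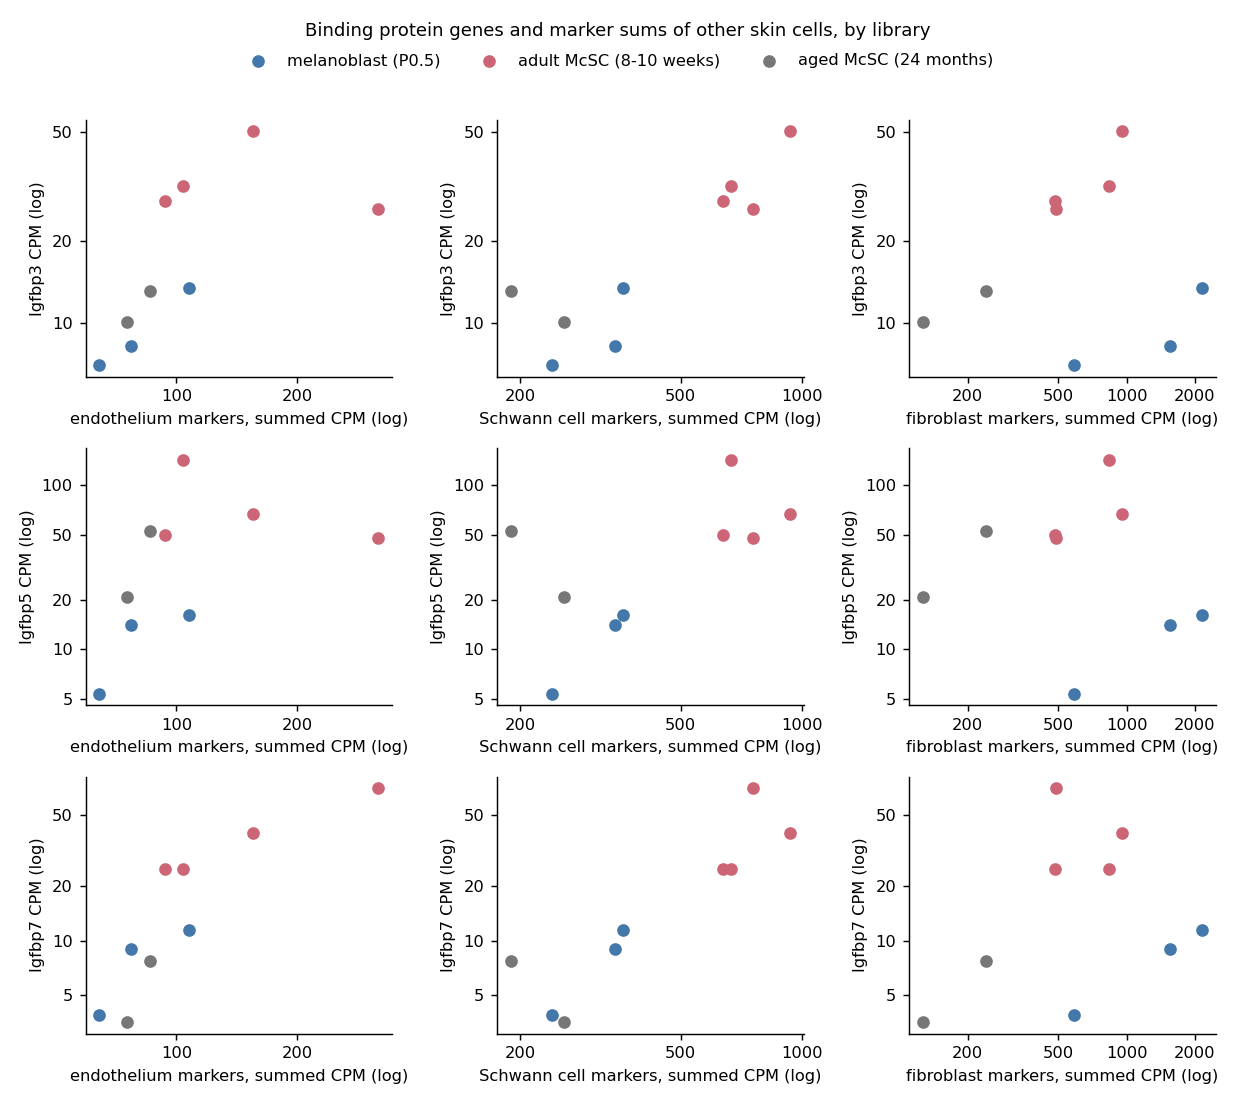
Igfbp3, Igfbp5 and Igfbp7 in each library against the summed CPM of endothelial, Schwann cell and fibroblast markers (both axes logarithmic). Igfbp7 has the order of the endothelial sum among the 4 adult libraries, from 24.8 at 93.8 to 70.0 at 319.4 CPM. The 2 aged libraries lie lower in Igfbp7 at 86.0 and 75.1 CPM, and melanoblast replicate 2 has Igfbp7 at 11.4 with a sum of 107.3 CPM.

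The genes most like each binding protein in their pattern over the 9 libraries were picked by Pearson's r of log2 CPM among 8046 protein-coding genes. The libraries share 3 groups, so r mainly ranks the shape across groups. Itga1, an integrin subunit, and Tubb6, a tubulin, were most like Igfbp7 (r = 0.984 and 0.974), and Itga1 went from 7.49 through 20.6 to 6.02 CPM. Fam78b and Tmem88b were most like Igfbp3 (r = 0.967 and 0.962). Midn and Cdk2ap2 were most like Igfbp5 (r = 0.981 and 0.98), Krt79, a keratin, and Egfr, the EGF receptor, most like Igfbp4 (r = 0.97 and 0.969), and Rtca and Trim44 most like Igf1r (r = 0.992 and 0.991).

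Among 9 other ligands, receptors and carriers of the family, 7 could be tested, and 1 rose and 2 fell in adult McSC against melanoblasts. Of all genes, 15.1% rose and 18.3% fell. Igf2, the fetal ligand, was at 78.2, 91.1 and 40.4 CPM in melanoblasts and 4.71, 2.01, 4.66 and 3.87 CPM in adult McSC. The groups were far apart (log2 fold change -4.19, SE 0.325, adjusted p = 7.8e-10). Igf2r, which clears IGF2 from the cell surface, went from 555.8 ± 121 to 154.5 ± 47.2 CPM, or -1.85 on the log2 scale (SE 0.247, adjusted p = 3.52e-06). Both falls were called in all 18 settings. The gene that rose was Ins1, at 0 CPM in melanoblasts and 0.336 CPM in adult McSC, under the level of the receptor genes. Igfbp1, at 0 and 0.114 CPM, was too scarce to test.

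Of 7 IGFBP proteases and their inhibitors, 1 rose and 1 fell in adult McSC, where 15.1% of all genes rose and 18.3% fell. Htra1, a protease of IGFBP5, was at 3.49, 2.08 and 1.41 CPM in melanoblasts and rose to 9.97, 8.42, 8.58 and 8.16 CPM in adult McSC (1.92 on the log2 scale, SE 0.368, adjusted p = 0.000267). Adam12, a protease of IGFBP3 and IGFBP5, went from 45.02 ± 14.7 to 6.11 ± 1.08 CPM, or -2.88 on the log2 scale (SE 0.262, adjusted p = 8.44e-09). Both were called in all 18 settings. Pappa, the gene of PAPP-A, was at 8.23 and 10.6 CPM (adjusted p = 0.316) and reached 16.4 CPM in aged McSC, where it was higher than in melanoblasts (log2 fold change 0.99, SE 0.321, adjusted p = 0.0173), a call lost without melanoblast replicate 2 or aged replicate 2.

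Of 28 signalling genes downstream of IGF1R, 12 fell and 1 rose in adult McSC, with a median of -0.54, but with factors from abundant genes 3 fell and 10 rose and the median was 0.28. Over all 31961 genes, 18.3% fell and 15.1% rose in the main fit, and 1815 fell and 10911 rose with those factors. Grb10, an adaptor that restrains the insulin and IGF1 receptors, went from 645.5 ± 185 to 70.7 ± 12.1 CPM, or -3.19 on the log2 scale (SE 0.242, adjusted p = 3.96e-10). Akt1, the kinase at the centre of the pathway, went from 162.4 ± 35.8 to 45.9 ± 19.7 CPM, or -1.82 on the log2 scale (SE 0.273, adjusted p = 1.66e-05). Grb10 and Akt1 fell in all 18 settings. Pik3cb, a catalytic PI3K subunit, had a log2 fold change of -1.14 (adjusted p = 0.000188), which was -0.32 with factors from abundant genes (adjusted p = 0.0703). Without melanoblast replicate 1 or adult replicate 1 there were 8 falls in place of 12, and 0 and 1 rises. Grb14, a relative of Grb10, was the gene that rose, with means of 2.97 and 6.89 CPM (adjusted p = 0.019), a call lost without melanoblast replicate 1 or adult replicate 3.

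Growth hormone signalling, which drives Igf1 in liver, showed 2 rises and 1 fall among 6 genes in adult McSC, where 15.1% of all genes rose and 18.3% fell. Cish, a cytokine-induced feedback inhibitor, was at 2.86, 4.74 and 2.86 CPM in melanoblasts and rose to 12.7, 17.1, 13.7 and 13.8 CPM in adult McSC (2.03 on the log2 scale, SE 0.289, adjusted p = 8.31e-06). Stat5a, a transcription factor of the pathway, had means of 27.2 ± 1.69 and 66.7 ± 16.9 CPM (1.29 on the log2 scale, SE 0.243, adjusted p = 0.000221). Both rises were called in all 18 settings. The kinase gene Jak2 fell (log2 fold change -0.62, adjusted p = 0.0242), a call made in 7 of 18 settings that turned to 0.19 with factors from abundant genes. It was lost without melanoblast replicate 1 or 2, adult replicate 1, 3 or 4, or either aged library.

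Between aged and adult McSC, edgeR called 0 of the 48 tested genes on these 4 lists and 0.303% of all genes. The medians were 1.33 for the other ligands, receptors and carriers, 0.19 for proteases and inhibitors, -0.33 for signalling genes and -0.21 for growth hormone signalling. An unadjusted edgeR p under 0.05 was found for 10 of the 48, and for 3275 of all 31961 genes. DESeq2 called 1 of the 48, on the list of proteases and inhibitors, and limma 5, of which 1 was on that list. Among the abundant members, Igf2r was at 133.2 against 154.5 CPM, Insr at 103.5 against 127.9, Gab1 at 390.5 against 482.1, Gsk3b at 246.6 against 305.2, Jak2 at 86.8 against 118.2 and Stat5a at 73.1 against 66.7 CPM. Among the proteases Adam12 was at 8.46 against 6.11 and Pappa at 16.4 against 10.6 CPM. None of these 8 passed in edgeR. Igf2 was at 9.855 against 3.815 CPM (1.37 on the log2 scale, edgeR adjusted p = 0.103). Htra1 was at 3.76 against 8.79 CPM (-1.22, edgeR adjusted p = 0.302). Neither passed in edgeR, and the groups did not overlap for either gene, as for 27.7% of all genes. Against melanoblasts, 20 of 28 signalling genes were lower in aged McSC and 0 higher (median -0.88). Of all genes, 20.3% were lower and 20.4% higher in this comparison. With factors from abundant genes 3 signalling genes were lower and 10 higher (median 0.31). Shc1, an adaptor of the MAPK branch, was among those lower in all 18 settings (log2 fold change -1.86, adjusted p = 2.26e-05). Insrr, a relative of the insulin receptor, was higher in aged McSC than in melanoblasts, at 11.8 and 8.04 CPM against 0.625 to 4.97 CPM (2.06 on the log2 scale, SE 0.581, adjusted p = 0.00809), but not without aged replicate 1. It was 1 of 3 rises and 2 falls among 7 ligands, receptors and carriers, where Igf2 and Igf2r had differences of -2.82 and -2.06 (adjusted p = 1.22e-05 and 2.91e-05). Of 7 proteases and inhibitors 1 rose, Pappa, and 1 fell, Adam12 (-2.41, adjusted p = 8.03e-06). Of 6 growth hormone signalling genes 2 rose, Cish (1.82, adjusted p = 0.000123) and Stat5a (1.43, adjusted p = 0.000314). Jak2 was lower (-1.07, adjusted p = 0.00254), but at 0.11 with factors from abundant genes (adjusted p = 0.539).

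**Figure D5:**
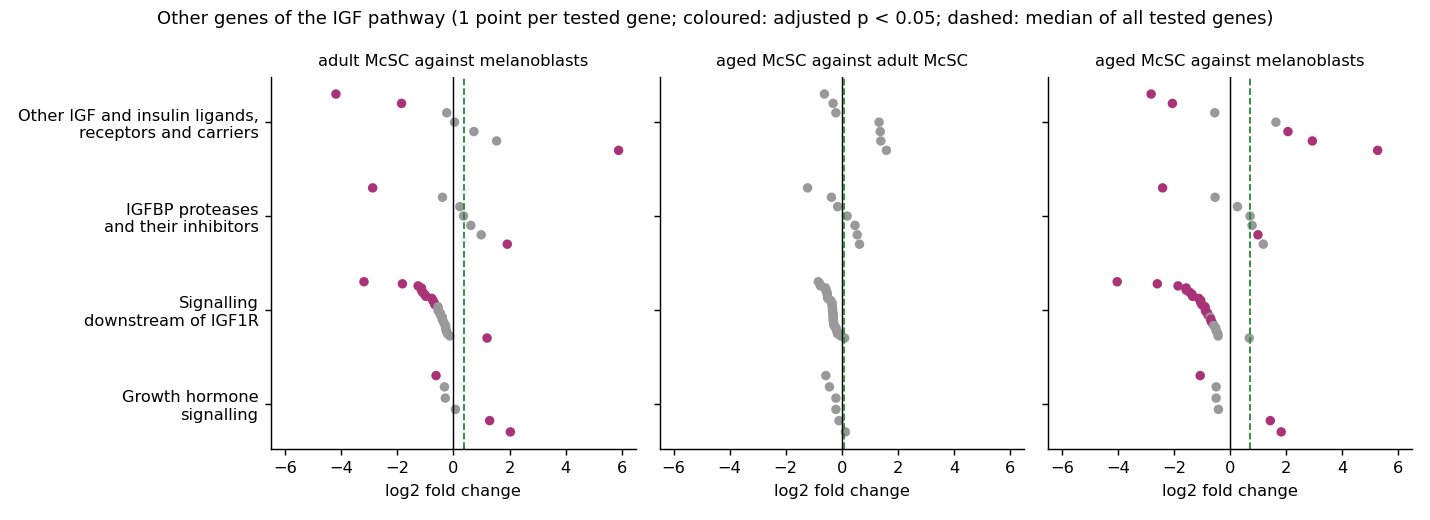
Log2 fold changes of the other IGF pathway genes by list in the 3 comparisons, 1 point per tested gene; coloured points have an edgeR adjusted p under 0.05 and the dashed line is the median of all genes. Signalling genes lie left of 0 against melanoblasts (medians -0.54 and -0.88) under the scaling shown, and no point is coloured in aged against adult.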

How the data were processed

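RNA-seq counts of 9 libraries were used, grouped by their titles. Build mm10, STAR 2.5.2, Trimmomatic 0.36, SAMtools 1.9, FastQC 0.11.8 and DESeq2 1.22.2 are named, with no order, in the submitters' processing notes. How reads were counted, and whether by strand, is not given in the sources used here. RNA was amplified as cDNA before library making, per the labels' protocols, so reads are not independent molecules and transcript proportions can shift. The authors deposited whole-number counts for each Ensembl identifier with no scaling. GENCODE M21 gave symbols, coordinates and exon lengths for 49412 of 49671 identifiers, and RefSeq the promoter windows.

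Group means were fitted with edgeR 4.0.16 (R 4.3.3) over all 9 libraries (TMM factors, filterByExpr leaving 31961 genes, robust quasi-likelihood test). Adjusted p-values are Benjamini-Hochberg over all genes, called under 0.05. SE came from the F statistic. The procedure was tested on simulated data. The 17 alternatives per comparison included DESeq2 1.42.0, limma 3.58.1, other factors and filters, and leaving out each library. No pair of libraries of a group was a duplicate (chi-square over degrees of freedom 15.2 to 63.3). The numbers in the titles are not said to pair libraries, and the main fit did not use them. The genes, gene lists and tests were chosen with earlier results of these data known. Up to 3 called genes per pathway list are named, by ascending p. Where no gene was called, the 2 with the highest CPM are. From each marker list the most abundant gene is named, and for each of the 8 genes reaching a mean of 10 CPM the 2 genes with the highest Pearson r. Grb14, Krt5, Krt15, Lhx2, Itga6, Sfn, Krt10, Krt1, the collagen genes and Igfbp1 were named after the values were seen. So were Pappa in adult McSC, and Igf2 and Htra1 in aged against adult McSC. The marker sum without Cdh1 was chosen then too.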

Additional observations from a re-analysis of the deposited data

Results flagged for a closer look

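Igfbp4 in adult replicate 3 was at 15.1 CPM, apart from the other adult libraries at 9.67 to 10.4 CPM. The gap to the nearest of them was 0.871 of the group's range, above the 95% critical value of Dixon's test for 4 libraries. The other 7 genes had no such value in the adult group, and chance alone sets about 5% of groups apart in this way. The same library had the highest Igfbp7 (70.0 CPM) and the highest endothelial marker sum (319.4 CPM). Groups of 3 and 2 libraries were not examined.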

How the results depend on the processing

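Each of the 8 genes was refitted under 17 alternatives per comparison. Igfbp3, Igfbp5 and Igfbp7 kept direction and call in all 17 for adult McSC against melanoblasts, and Igfbp3 and Igfbp7 kept direction in all 17 for aged against adult McSC. Depth limits Igfbp2 (2 to 74 counts per library) and Igfbp6 (5 to 44). Factors from abundant genes moved the median of all genes from 0.39 to 1.19 (adult against melanoblasts), 0.08 to 0.42 (aged against adult) and 0.70 to 1.82 (aged against melanoblasts). The cause of the changes below was not tested, except that the stricter filter tests fewer genes and a fit without a library has fewer samples.

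Genes called in adult McSC against melanoblasts were 10676, and 6877 with the stricter filter. Leaving out a library gave 8056 to 14059. The genes called among the 8 were 6, and 3 to 6 with a library left out. In aged against adult McSC, 97 genes were called, and 339 with DESeq2, 1416 with limma voom, 57 with factors from abundant genes, 343 without a filter and 311 with only the groups compared. Leaving out a library gave 13 (aged replicate 2) to 303 (melanoblast replicate 3), and 46 and 49 without adult replicate 1 and 3. Of the 8 genes 2 were called, and 0 with factors from abundant genes or the stricter filter. Leaving out a library gave 0 to 2. Aged against melanoblasts, 13005 genes were called, and 7611 with the stricter filter. Leaving out a library gave 7410 to 16292. Of the 8 genes 4 were called, and 2 with DESeq2 or with only the groups compared. Leaving out a library gave 1 to 4.

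Signs turned for differences not called in the main fit, and for 1 that was called. That was Igf1r in adult McSC against melanoblasts (-0.59, edgeR adjusted p = 0.0488). For adult McSC against melanoblasts, Igf1 was 0.62 and Igf1r 0.23 with factors from abundant genes, and Igf1 0.27 with the stricter filter. Without a library, Igf1 ran from -0.46 to 0.089. For aged against adult McSC, Igfbp4 was -0.084 with DESeq2 or RLE factors, -0.037 with no filter and -0.049 with limma voom, and Igfbp6 was 0.35 with factors from abundant genes. Without a library, Igfbp2 ran from -0.12 to 0.35, Igfbp4 ran from -0.066 to 0.17, Igfbp6 ran from -1.52 to 0.67. For aged McSC against melanoblasts, Igf1 was 1.14 (adjusted p = 0.0176) and Igfbp7 0.73 with factors from abundant genes, 0.64 and 0.23 with the stricter filter, and Igf1 0.021 without a filter and 0.055 with only the groups compared. Without a library, Igf1 ran from -0.29 to 0.26, Igfbp7 ran from -1.14 to 0.048.

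The replicate numbers shared by the titles are not said to mark a shared animal, day or batch. Deviations from group means of same-numbered libraries correlated at -0.08 to 0.2. With so few pairs this cannot decide whether the numbers pair the libraries. Of 3 melanoblast libraries 1 correlated best with the adult library of its own number. With the number as a replicate block, 9035 genes were called in adult McSC against melanoblasts, 172 in aged against adult and 12740 in aged McSC against melanoblasts. Of the 8 genes 4, 3 and 3 were called. In aged against adult McSC Igfbp5 was the gene added. Under this block Igf1 was -0.065 and Igfbp4 -0.0034 in aged against adult McSC.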

Other observations

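Igfbp2 and Igfbp5 are neighbours on chromosome 1, on opposite strands with 5457 bases between them, yet their levels differed widely. In melanoblasts Igfbp5 was at 1.98 and Igfbp2 at 0.271 CPM per kb. Both rose against melanoblasts (log2 fold changes 2.69 and 2.02). Igfbp3 has Igfbp1 as its neighbour on chromosome 11, 3539 bases away on the other strand, and Igfbp1 was at 0, 0.114 and 0.237 CPM in melanoblast, adult and aged libraries while Igfbp3 was at 9.60, 34.1 and 11.6 CPM.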
